A study of Mus musculus with 12 samples.

Results

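The genes described here are 34 genes of the heat shock system, namely chaperones and co-chaperones of the cytosol and the mitochondria together with Hsf1, the factor that switches them on. They were chosen by gene symbol, and every probe set of the arrays annotated to 1 of them was read on all 12 arrays. A probe set is a group of short probes that report 1 transcript. The list holds the Hsp70 and Hsp110 proteins (Hspa1a, Hspa1b, Hspa2, Hspa4, Hspa4l, Hspa8 and Hsph1), Hsp90 (Hsp90aa1 and Hsp90ab1) and Hsp40 (Dnaja1, Dnaja2, Dnajb1, Dnajb4 and Dnajb6). It also holds the small heat shock proteins Hspb1 and Cryab, the mitochondrial chaperones Hspa9, Hspd1, Hspe1 and Trap1, and the co-chaperones Bag3, Stip1, Ahsa1, Fkbp4 and Chordc1. The cytosolic chaperonin is represented by its 8 subunit genes Tcp1, Cct2, Cct3, Cct4, Cct5, Cct6a, Cct7 and Cct8, and regulation by Hsf1. Of the 34 genes, 32 were tested among 10996 genes in all, and Hsf1 and Hsp90ab1 were not analysed here. The 32 genes had 89 probe sets, of which 73 passed the filter on low signal, and each gene was read from its passing probe set with the highest mean.

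The lungs came from mice aged 8 to 12 weeks, with 3 mice and 3 arrays in each of 4 groups. Knockout VILI mice lacked Gadd45a and were ventilated, and knockout SB mice lacked Gadd45a and carry only the label SB. Wild type VILI mice had the gene and were ventilated, and wild type SB mice had the gene and carry the label SB. VILI is ventilator-induced lung injury, here 4 hours of ventilation at 65 breaths per minute and a tidal volume of 30 ml/kg, and the labels do not spell out SB. The titles write the knockout as GADD45-/-, another label of the ventilated knockouts writes GADD-/-, a further label calls every mouse a control, and the series title names GADD45a, a small stress-inducible protein. Which cells lack the gene, and the strain and sex of the mice, are not stated in the labels. All values below are deposited expression levels on the log2 scale, so that a difference of 1 is a 2-fold change, and a level of 1 gene cannot be set against that of another.

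Heat shock chaperones bind proteins that are unfolded or still folding and keep them from aggregating. Hsp70 takes up a client with the help of an Hsp40 partner, releases it with an exchange factor such as Hspa4 or Hsph1, and can pass it to Hsp90 through the adaptor Stip1. The chaperonin folds actin and tubulin in the cytosol, and Hspa9, Hspd1 and Hspe1 fold proteins that enter mitochondria. Under heat or other protein stress, Hsf1 binds the heat shock element in front of many of these genes, and Hspa1a and Hspa1b are the best known inducible ones.

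The knockout label held for the targeted gene, which read 5.36 to 6.02 in knockout VILI and 4.58 to 6.15 in knockout SB, below 9.75 to 10.33 in wild type VILI and 8.62 to 9.51 in wild type SB. Arrays of 1 group correlated at 0.963 to 0.995 over all genes tested. Lung markers were high on every array: the mean of 7 of 8 type II epithelial markers was 13.04 to 13.61, and that of 6 of 6 type I markers 12.08 to 12.93. Replicate 3 of knockout VILI and replicate 3 of knockout SB stood apart in B cell markers (mean of 5 of 8 measured, 10.84 and 10.35, against 5.98 to 8.13 on the other arrays). The counts called, the Hspa1a and Hspa1b genotype differences, the spread and the correlations are also given without these 2 arrays. The 3′ minus 5′ difference of the beta actin control probe sets, a sign of RNA integrity, was 0.55 to 0.77 in knockout VILI, 0.63 to 0.79 in knockout SB, 0.62 to 0.89 in wild type VILI and 1.07 to 1.10 in wild type SB. In whole lung, fewer cells of a type and less RNA per cell cannot be told apart.

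The first question was what ventilation changed. Averaged over both genotypes, 5 of the 32 chaperone genes rose after VILI and 0 fell: the Hsp40 gene Dnajb1, the exchange factor gene Hspa4, the mitochondrial Hsp70 gene Hspa9 and the chaperonin subunit genes Cct6a and Cct2. The rises were small, from 1.17-fold to 1.56-fold. Over all genes tested, 17.8% were called in this comparison (8.42% higher and 9.39% lower, limma with Benjamini-Hochberg adjustment over all genes), so that 5 of 32 is near the background and is not a result about chaperones as a group. The median difference of the 32 genes was 0.046, against -0.027 for all genes tested.

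Hspa9, which drives protein import and folding in mitochondria, read 11.03, 11.57 and 11.13 in knockout VILI, 10.68, 10.91 and 10.76 in knockout SB, 11.04, 11.06 and 11.13 in wild type VILI, and 10.81, 10.87 and 10.82 in wild type SB. On the probe set used, all ventilated arrays of a genotype lay above all of its SB arrays, and replicate 2 of knockout VILI was the highest. The difference was 0.35 (SE 0.09, adjusted p = 0.0222). Cct6a, a subunit of the chaperonin ring, read 12.62, 12.84 and 12.87 in knockout VILI, 12.39, 12.41 and 12.46 in knockout SB, 12.71, 12.64 and 12.87 in wild type VILI, and 12.31, 12.61 and 12.52 in wild type SB. On the probe set used, it too was higher on every ventilated array than on any SB array of the same genotype. The difference was 0.31 (SE 0.071, adjusted p = 0.0145). Cct2, another subunit, read 12.25, 12.51 and 12.54 in knockout VILI, 12.15, 12.11 and 12.12 in knockout SB, 12.44, 12.22 and 12.27 in wild type VILI, and 12.16, 12.16 and 12.17 in wild type SB. The SB arrays lay within a narrow band in both genotypes, and all 6 ventilated arrays lay above it. Its difference was 0.23 (SE 0.064, adjusted p = 0.0307).

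Hspa4, which recharges Hsp70 by releasing its spent nucleotide, read 11.52, 11.64 and 11.63 in knockout VILI, 10.95, 11.45 and 10.97 in knockout SB, 11.54, 11.60 and 11.50 in wild type VILI, and 11.18, 11.51 and 11.11 in wild type SB. In wild type, SB replicate 2 reached the ventilated arrays, while in knockout all ventilated arrays lay above all SB arrays. The difference was 0.38 (SE 0.10, adjusted p = 0.0255). Dnajb1, the stress-inducible Hsp40 partner of Hsp70, read 9.61, 11.11 and 10.52 in knockout VILI, 9.70, 9.49 and 9.38 in knockout SB, 9.58, 9.58 and 9.55 in wild type VILI, and 9.20, 9.37 and 8.98 in wild type SB. Wild type did not overlap, and in knockout replicate 1 of VILI lay below replicate 1 of SB while replicates 2 and 3 were far above. The difference was 0.64 (SE 0.20, adjusted p = 0.0476).

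**Figure D1:**
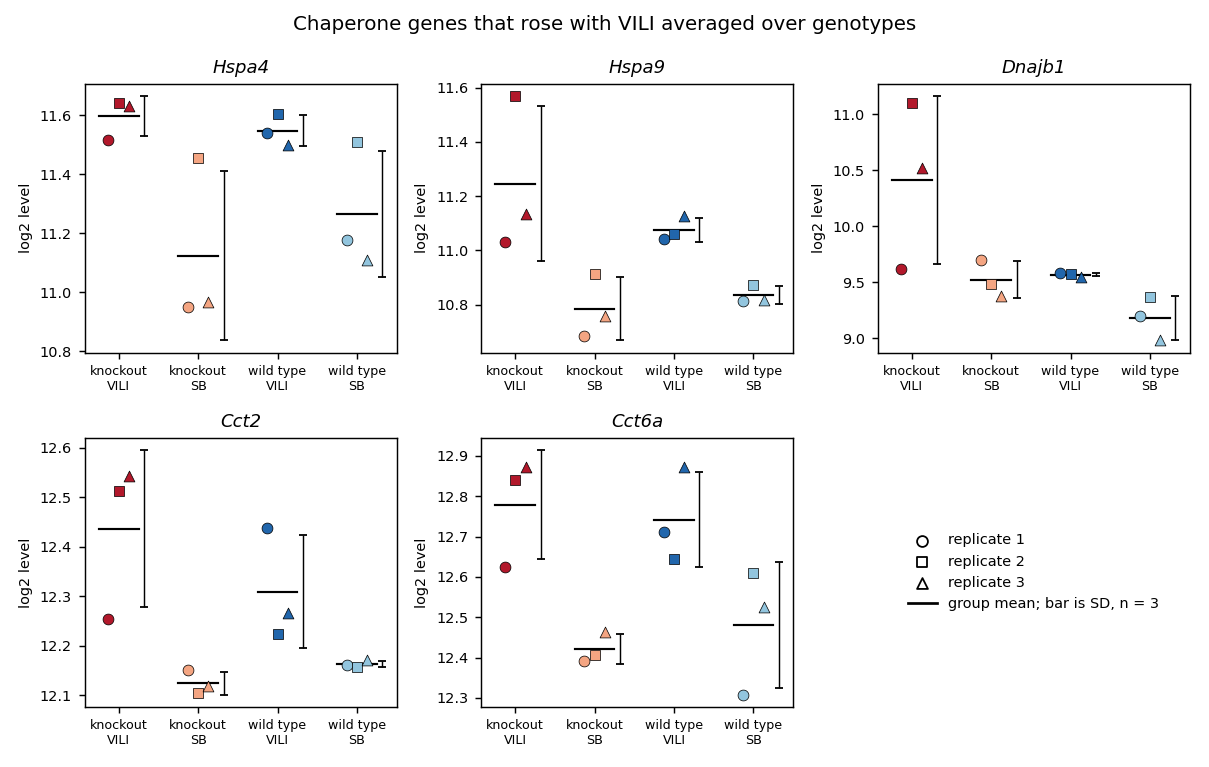
Log2 level of the 5 chaperone genes that rose with VILI averaged over genotypes, by group, with 1 symbol per array, a line at the group mean and a bar for the SD (n = 3). On the probe sets used, Hspa9, Cct6a and Cct2 do not overlap between VILI and SB in either genotype. The Dnajb1 difference in knockout rests on replicates 2 and 3.

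The calls depended on single arrays. Cct6a passed in all 12 fits that left out 1 array (highest adjusted p = 0.039). Hspa9 passed in 9 and was lost without wild type VILI replicate 2, knockout SB replicate 1 or wild type SB replicate 3 (0.0506 to 0.0513). Hspa4 passed in 7 and was lost without knockout VILI replicate 2, wild type VILI replicates 1 or 2, knockout SB replicate 1 or wild type SB replicate 3 (up to 0.0655). Cct2 passed in 5, those without knockout VILI replicate 1, wild type VILI replicates 2 or 3, knockout SB replicate 3 or wild type SB replicate 1, and otherwise reached up to 0.0747. Dnajb1 passed in 1, the fit without knockout VILI replicate 1, and otherwise reached up to 0.104. The number of chaperone genes called was 1 without wild type SB replicate 3 or knockout SB replicate 1 (11.2% and 13.4% of all genes called). It was 2 without wild type VILI replicate 1, wild type VILI replicate 2 or knockout VILI replicate 2 (11.7%, 10.3% and 11% of all genes). It was 3 without knockout VILI replicate 3 (14.6%) and 7 without knockout VILI replicate 1 (19%), against 17.8% of all genes with all 12 arrays. Without both arrays high in B cell markers it was 2, Cct6a and Hspa9, against 14.8% of all genes. Probe sets of a gene did not always move together: the 3 passing probe sets of Hspa9 and the 3 of Cct2 were all positive, with 2 called for each, whereas of the 4 for Hspa4 only 2 were positive and 1 was called. Cct6a had 1 of 2 called, and Dnajb1 had 2 positive probe sets and 0 called when each probe set was tested on its own. The other Cct6a probe set overlapped between VILI and SB in both genotypes. In wild type its SB replicate 2 (11.16) lay above all ventilated arrays (11.02 to 11.11). A further Hspa9 probe set overlapped in wild type, with SB up to 10.66 and VILI from 10.63. None of the Cct2 probe sets overlapped in either genotype. The mean of 11 of 12 neutrophil markers, in the same arrays, was 8.81 to 10.34 in knockout VILI against 6.50 to 7.02 in knockout SB, and 8.59 to 9.41 in wild type VILI against 6.02 to 6.52 in wild type SB. Its part in these differences was not tested.

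Within a single genotype no chaperone gene passed. In knockout lungs, limma called 0 of 32 for VILI, against 4.47% of all genes, and 6 (18.8%) had an unadjusted p below 0.05, against 22.2% of all genes: Hspa1a, Dnajb1, Hspa4, Hspa9, Cct6a and Cct2. Their differences in knockout were 1.96 (adjusted p = 0.157) for Hspa1a, 0.89 (adjusted p = 0.0974) for Dnajb1, 0.47 (adjusted p = 0.0846) for Hspa4, 0.46 (adjusted p = 0.0645) for Hspa9, 0.36 (adjusted p = 0.0686) for Cct6a and 0.31 (adjusted p = 0.0745) for Cct2. Without knockout VILI replicate 1, 6 genes passed, against 6.48% of all genes in that fit, with Hspa1a at 3.07 (adjusted p = 0.00498), Hspa1b at 2.58 (adjusted p = 0.0209) and Dnajb1 at 1.29 (adjusted p = 0.00476), and Cct2, Cct6a and Hspa9 made up the rest. Without knockout SB replicate 2, Hspa4 alone passed (0.64, adjusted p = 0.027), against 2.78% of all genes. Without both arrays high in B cell markers 0 of 32 passed, against 1% of all genes.

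In wild type lungs, 0 of 32 passed for VILI, against 2.64% of all genes (1.36% higher and 1.28% lower), and 2 (6.25%), Cct6a and Dnajb4, had an unadjusted p below 0.05, against 21.2% of all genes. The differences in wild type were 0.26 (adjusted p = 0.169) for Cct6a, 0.24 (adjusted p = 0.3) for Hspa9, 0.28 (adjusted p = 0.279) for Hspa4, 0.39 (adjusted p = 0.47) for Dnajb1 and 0.15 (adjusted p = 0.378) for Cct2. Overlap between arrays was also counted, on the probe set used for each gene. Knockout VILI lay wholly above knockout SB for 4 of the 32 genes (Cct2, Cct6a, Hspa4 and Hspa9), against 12.9% of all genes. Wild type VILI lay wholly above wild type SB for 6 genes (Cct2, Cct6a, Dnajb1, Dnajb4, Hspa1a and Hspa9), against 11.6% of all genes. Cct2, Cct6a and Hspa9 did so in both genotypes, as did 6.01% of all genes. On these probe sets, no chaperone gene lay wholly below SB in either genotype, against 10.6% of all genes in knockout and 20% in wild type. The other passing probe set of Trap1 did so in both genotypes, by narrow margins. It read 7.73 to 7.93 in knockout VILI against 7.95 to 8.25 in knockout SB. In wild type it read 7.73 to 7.97 in VILI against 7.99 to 8.28 in SB. Its averaged VILI difference was -0.28 (adjusted p = 0.0783, limma at the probe set level).

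**Figure D2:**
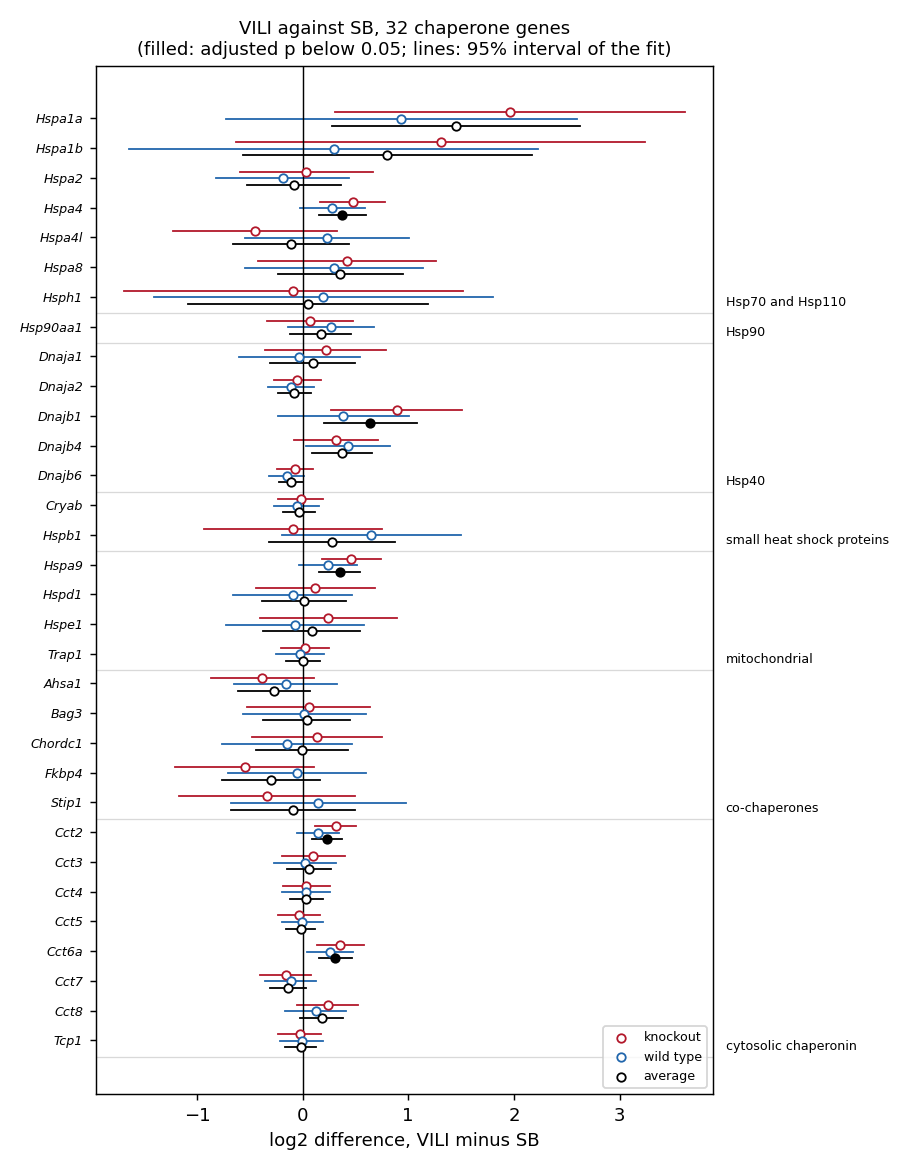
Log2 difference of VILI minus SB for the 32 chaperone genes, grouped by class, in knockout (red), in wild type (blue) and averaged (black), with 95% intervals of the fit and filled points where the adjusted p is below 0.05. The 5 filled points, Dnajb1, Hspa4, Hspa9, Cct2 and Cct6a, all belong to the average, and the widest intervals are those of Hspa1a, Hspa1b and Hsph1.

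The other chaperone classes are described by their levels. Among Hsp70 genes, the inducible pair had the widest range. Hspa1a read 7.60, 10.61 and 11.22 in knockout VILI, 8.57, 6.77 and 8.20 in knockout SB, 7.07, 7.31 and 7.73 in wild type VILI, and 6.26, 6.58 and 6.46 in wild type SB. Replicates 2 and 3 of knockout VILI were far above the rest, replicate 1 of knockout VILI was within the range of the other groups, and wild type VILI lay wholly above wild type SB. Hspa1b read 9.10, 12.85 and 12.98 in knockout VILI, 10.77, 9.01 and 11.22 in knockout SB, 8.84, 8.63 and 9.17 in wild type VILI, and 8.17, 8.36 and 9.21 in wild type SB. Its high arrays were the same: replicates 2 and 3 of knockout VILI, then replicates 3 and 1 of knockout SB. The genes are near-identical copies whose probe sets may each read both, so their levels are uncertain gene by gene, and their promoter windows are equal at 296 of 300 positions. Averaged over genotypes, VILI gave 1.45 (adjusted p = 0.0819) for Hspa1a and 0.80 (adjusted p = 0.399) for Hspa1b. Both passed without knockout VILI replicate 1, at 2.0 (adjusted p = 0.00219) for Hspa1a and 1.44 (adjusted p = 0.0217) for Hspa1b.

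Hspa8, the constitutive Hsp70 of every cell, read 13.24, 14.52 and 13.83 in knockout VILI, 13.43, 12.75 and 14.14 in knockout SB, 13.48, 13.21 and 13.28 in wild type VILI, and 12.44, 13.07 and 13.57 in wild type SB. The groups overlapped, with the lowest array in wild type SB and the highest in knockout VILI. Hsph1, an Hsp110 exchange factor, read 9.01, 10.76 and 9.80 in knockout VILI, 9.62, 8.47 and 11.75 in knockout SB, 10.24, 9.66 and 9.57 in wild type VILI, and 8.84, 9.41 and 10.63 in wild type SB. Its highest and its lowest array belong to the same group, knockout SB. Hspa4l, a relative of Hspa4, read 8.52, 8.80 and 8.28 in knockout VILI, 8.82, 8.33 and 9.80 in knockout SB, 9.51, 8.92 and 8.80 in wild type VILI, and 8.40, 8.77 and 9.36 in wild type SB, and knockout VILI lay below wild type VILI, though the nearest arrays were equal to the second decimal. Hspa2, best known from male germ cells, stayed between 7.36 and 8.49.

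Hsp90aa1, the inducible form of Hsp90, stayed between 13.42 and 14.13. Its means were 13.81 ± 0.23 in knockout VILI, 13.74 ± 0.35 in knockout SB, 13.96 ± 0.067 in wild type VILI and 13.69 ± 0.31 in wild type SB (± SD of 3 mice), and the groups overlapped. Of the Hsp40 genes besides Dnajb1, Dnajb4 read 11.43, 11.53 and 11.34 in knockout VILI, 11.09, 11.51 and 10.77 in knockout SB, 11.54, 11.59 and 11.82 in wild type VILI, and 11.03, 11.54 and 11.08 in wild type SB. The lowest ventilated and the highest SB array of wild type were equal to the second decimal, and in knockout, SB replicate 2 lay among the ventilated arrays. The averaged VILI difference was 0.37 (adjusted p = 0.0649), and it passed without wild type SB replicate 2 (0.45, adjusted p = 0.0354) or knockout SB replicate 2 (0.47, adjusted p = 0.0199). Dnaja1, an abundant farnesylated Hsp40, read 11.46, 12.48 and 12.02 in knockout VILI, 11.50, 11.44 and 12.35 in knockout SB, 11.33, 11.32 and 11.42 in wild type VILI, and 11.25, 11.33 and 11.57 in wild type SB, with replicates 2 and 3 of knockout VILI and replicate 3 of knockout SB above all other arrays. Dnaja2 stayed at 11.34 to 11.83 on all arrays and Dnajb6 at 11.78 to 12.03.

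Hspb1, a small heat shock protein that protects actin filaments, read 11.89, 12.66 and 11.57 in knockout VILI, 11.91, 11.43 and 13.05 in knockout SB, 12.68, 12.74 and 12.10 in wild type VILI, and 11.77, 11.60 and 12.19 in wild type SB. Replicate 3 of wild type VILI lay below the highest wild type SB array, and in knockout the SB arrays spanned the ventilated ones. Among mitochondrial genes, Hspd1, the chamber of the mitochondrial chaperonin, read 11.32, 12.15 and 11.78 in knockout VILI, 11.46, 11.21 and 12.22 in knockout SB, 11.34, 11.24 and 11.31 in wild type VILI, and 11.20, 11.25 and 11.72 in wild type SB. Hspe1, its lid, read 10.70, 11.87 and 11.34 in knockout VILI, 10.92, 10.64 and 11.63 in knockout SB, 11.02, 10.81 and 10.65 in wild type VILI, and 10.71, 10.78 and 11.20 in wild type SB. Both were highest in the same 4 arrays, replicates 2 and 3 of knockout VILI, replicate 3 of knockout SB and replicate 3 of wild type SB. Trap1, the mitochondrial Hsp90, stayed at 7.98 to 8.19 on all arrays on the probe set used.

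Co-chaperones gave 0 calls for VILI. Stip1, which joins Hsp70 to Hsp90, read 7.48, 8.25 and 7.98 in knockout VILI, 8.12, 7.50 and 9.10 in knockout SB, 8.27, 7.87 and 7.60 in wild type VILI, and 7.32, 7.70 and 8.27 in wild type SB. Fkbp4, a prolyl isomerase of steroid receptor complexes, read 9.75, 9.63 and 9.40 in knockout VILI, 10.07, 9.56 and 10.79 in knockout SB, 10.12, 9.74 and 9.55 in wild type VILI, and 9.42, 9.80 and 10.34 in wild type SB. For both, replicate 3 of knockout SB was the highest array of all, and replicate 3 of wild type SB the highest of its group. Chordc1, a partner of Hsp90, read 9.01, 9.87 and 9.74 in knockout VILI, 9.49, 8.86 and 9.85 in knockout SB, 8.89, 8.95 and 8.88 in wild type VILI, and 9.11, 8.65 and 9.40 in wild type SB, and knockout VILI lay wholly above wild type VILI. Ahsa1, which speeds the ATPase of Hsp90, was at 9.94 to 11.03, and Bag3, which links Hsp70 to autophagy, at 8.98 to 10.33. Of the 8 chaperonin subunits 2 rose with VILI, and Cct8, the third by size of its averaged difference, read 10.70, 10.90 and 10.86 in knockout VILI, 10.66, 10.28 and 10.81 in knockout SB, 10.66, 10.67 and 10.61 in wild type VILI, and 10.37, 10.54 and 10.67 in wild type SB.

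The second question was whether loss of Gadd45a altered these genes. In SB lungs, 0 of 32 chaperone genes passed for knockout against wild type, compared with 0.109% of all genes, and 2 (6.25%), Cct5 and Cryab, had an unadjusted p below 0.05, against 10.1% of all genes. After VILI, 0 of 32 passed, compared with 0.1% of all genes (0.0455% higher and 0.0546% lower), and 6 (18.8%) had an unadjusted p below 0.05, against 6.88% of all genes (Chordc1, Cryab, Dnaja1, Dnajb1, Hspa1a and Hspa1b). Averaged over treatments, 0 of 32 passed, compared with 0.455% of all genes, and 8 (25%) had an unadjusted p below 0.05, against 14.6% of all genes. The median of the 32 differences was 0.124 in SB, 0.081 after VILI and 0.065 averaged, against -0.061 in SB, -0.010 after VILI and -0.039 averaged for all genes tested. Without both arrays high in B cell markers the median in SB was -0.048.

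The largest genotype differences belonged to Hspa1b and Hspa1a, and neither passed. The means of Hspa1b were 11.64 ± 2.20 in knockout VILI, 10.33 ± 1.17 in knockout SB, 8.88 ± 0.27 in wild type VILI and 8.58 ± 0.56 in wild type SB (± SD of 3 mice), which gave 2.76 (SE 0.88, adjusted p = 0.517) after VILI. The difference in SB was 1.75 (SE 0.88, adjusted p = 0.523), and averaged over treatments it came to 2.26 (SE 0.62, adjusted p = 0.179). For Hspa1a the difference after VILI was 2.44 (SE 0.76, adjusted p = 0.507). In SB lungs it was 1.41 (SE 0.76, adjusted p = 0.552), and over treatments it averaged 1.93 (SE 0.54, adjusted p = 0.179). In SB, knockout lay wholly above wild type for Hspa1a, and for Hspa1b knockout replicate 2 lay below wild type replicate 3. After VILI, knockout replicate 1 lay within the wild type range for both genes. Leaving out that array changed the outcome: averaged over treatments, Hspa1a came to 2.48 (adjusted p = 0.00323), Hspa1b to 2.89 (adjusted p = 0.00435), Dnajb1 to 0.79 (adjusted p = 0.0136) and Cryab to -0.36 (adjusted p = 0.0305), so that 4 genes passed in place of 0, against 1.46% of all genes in that fit. After VILI, 3 passed without it, against 0.382% of all genes, Hspa1a at 3.55 (adjusted p = 0.00831), Hspa1b at 4.03 (adjusted p = 0.0114) and Dnajb1 at 1.25 (adjusted p = 0.0186). Without both arrays high in B cell markers the averaged values were 1.49 (adjusted p = 0.303) for Hspa1a and 1.70 (adjusted p = 0.316) for Hspa1b, and 0 of 32 passed in each genotype comparison.

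**Figure D3:**
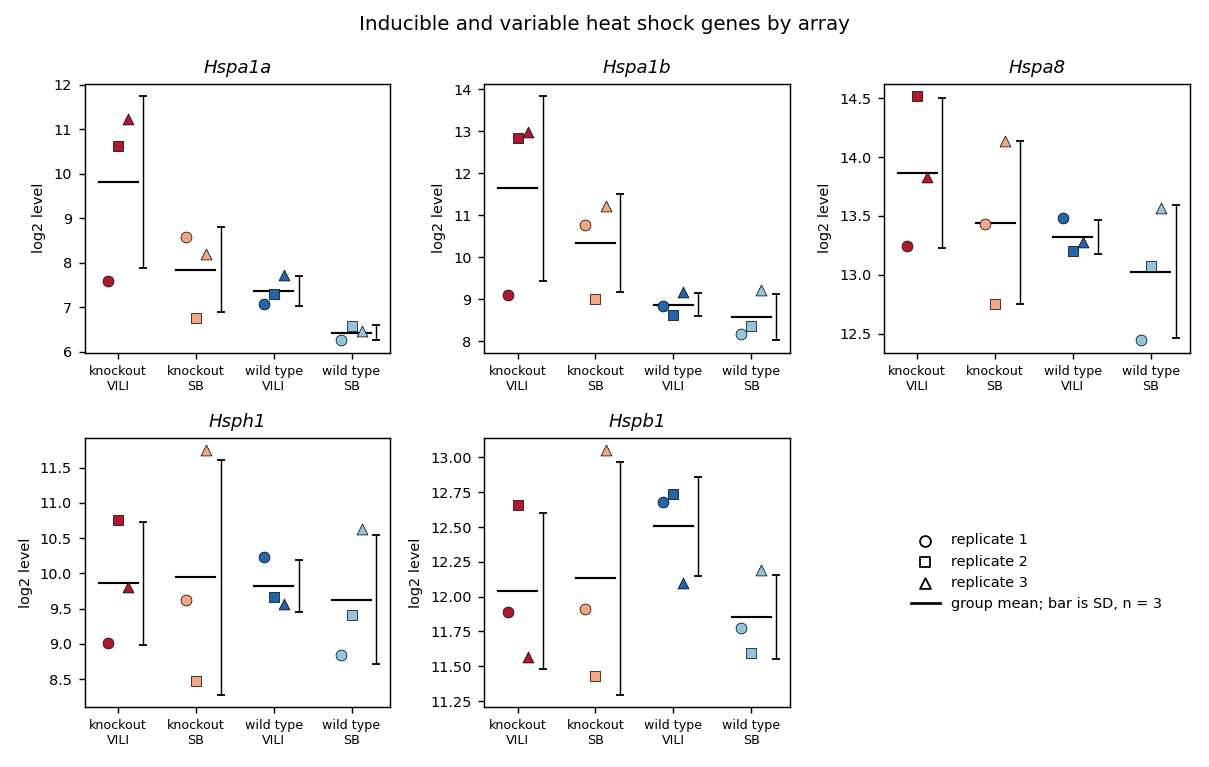
Log2 level of 5 heat shock genes with a large spread, by group, with 1 symbol per array, a line at the group mean and a bar for the SD (n = 3). Hspa1a and Hspa1b are highest in replicates 2 and 3 of knockout VILI while replicate 1 of that group sits with the wild type arrays, and Hspa8, Hsph1 and Hspb1 overlap between all groups.

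On the probe set used, Dnajb1 lay wholly above wild type in knockout in both treatments, by narrow margins. The nearest knockout and wild type arrays were 9.379 and 9.370 in SB, and 9.615 and 9.579 after VILI. It was the only 1 of the 32 genes to do so, but how many of all genes did so in both treatments was not counted. Its genotype difference was 0.85 (SE 0.28, adjusted p = 0.548) after VILI. In SB it was 0.34 (SE 0.28, adjusted p = 0.712), and over treatments it averaged 0.59 (SE 0.20, adjusted p = 0.216). The other passing probe set of Dnajb1 did not overlap in SB. After VILI its knockout replicate 1 (8.89) lay below all wild type arrays (8.91 to 9.20). Its averaged genotype difference was 0.64 (adjusted p = 0.314, tested at the probe set level). Cryab is a small heat shock protein abundant in heart and other muscle. On the probe set used, it lay wholly below wild type in knockout in both treatments. It was the only 1 of the 32 genes to do so, again without a count over all genes. It read 12.97, 12.83 and 12.63 in knockout VILI, 12.92, 12.78 and 12.77 in knockout SB, 13.11, 12.99 and 13.22 in wild type VILI, and 13.14, 13.11 and 13.24 in wild type SB. The averaged genotype difference was -0.32 (SE 0.069, adjusted p = 0.0821). The other passing probe set of Cryab overlapped in SB, with a difference of 0.03, and gave an averaged difference of -0.19 (adjusted p = 0.567, tested at the probe set level). The mean of 10 of 10 heart muscle markers was 9.48 to 10.30 in knockout VILI, 9.70 to 10.15 in knockout SB, 9.07 to 11.34 in wild type VILI and 8.69 to 10.86 in wild type SB, and its part in the Cryab level was not tested.

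Array separation was counted for genotype as well, on the probe set used for each gene. In SB, knockout lay wholly above wild type for 6 of 32 genes (Cct4, Cct5, Dnaja2, Dnajb1, Hspa1a and Tcp1), against 3.76% of all genes, and wholly below for 2 (Cct2 and Cryab), against 11.5%. The Cct2 difference in SB was only -0.04, and another passing Cct2 probe set separated the other way. That probe set read 11.75 to 11.76 in knockout SB against 11.48 to 11.69 in wild type SB. After VILI, knockout lay wholly above for 4 genes (Cct8, Chordc1, Dnaja1 and Dnajb1), against 6.64% of all genes, and wholly below for 3 (Cryab, Dnajb4 and Hspa4l), against 8.13%. The averaged differences were 0.50 (adjusted p = 0.247) for Dnaja1, 0.49 (adjusted p = 0.295) for Chordc1 and 0.48 (adjusted p = 0.43) for Hspa8. With both arrays high in B cell markers left out they were 0.35 (adjusted p = 0.409) for Dnaja1, 0.32 (adjusted p = 0.531) for Chordc1 and 0.31 (adjusted p = 0.659) for Hspa8. These comparisons use the same arrays as the VILI comparisons. Wild type SB is also the group whose beta actin control differed, and the part of RNA integrity in these differences was not tested.

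Whether the response to VILI depended on genotype was tested as an interaction, the VILI difference in knockout minus that in wild type. No chaperone gene passed in limma, with 0 of 32 also at an unadjusted p below 0.05, and over all genes tested 0 passed while 288 (2.62%) had an unadjusted p below 0.05. Among the 32 genes, 21 interactions were positive and 11 negative. The highest were those of Hspa1a, 1.03 (SE 1.07, adjusted p = 0.9999), Hspa1b, 1.01 (SE 1.25, adjusted p = 0.9999), and Dnajb1, 0.51 (SE 0.40, adjusted p = 0.9999). The lowest were those of Hspb1, -0.74 (SE 0.54, adjusted p = 0.9999), and Hspa4l, -0.68 (SE 0.50, adjusted p = 0.9999). Hspa1a came to 0.50, Hspb1 to -0.05 and Hspa4l to -0.15 without both arrays high in B cell markers. The 95% intervals are wide, from -1.32 to 3.38 for Hspa1a, from -0.37 to 1.38 for Dnajb1 and from -1.94 to 0.45 for Hspb1, so that a dependence of several fold lies inside the first and the last.

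Chaperone genes outside the 34 were counted for comparison, 60 listed and 51 tested. Averaged over genotypes, 5 rose with VILI and 4 fell, against 8.42% and 9.39% of all genes. The risers were Hspb8, the small heat shock partner of Bag3, at 0.73 (adjusted p = 0.00232), Dnajb5 at 0.68 (adjusted p = 0.00639), the prefoldin subunit Pfdn4 at 0.32 (adjusted p = 0.0262), the mitochondrial protease unit Clpx at 0.32 (adjusted p = 0.0282) and Hspa13 at 0.24 (adjusted p = 0.0478). The genes that fell were Hspa12b, an Hsp70 relative of endothelial cells, at -1.44 (adjusted p = 0.00773), Hspa12a at -0.94 (adjusted p = 0.000354), Hspb11, a component of the transport machinery of cilia, at -0.68 (adjusted p = 0.00231), and Dnaja4 at -0.47 (adjusted p = 0.0485). Within knockout, Hspb8 (0.83, adjusted p = 0.0183) and Dnajb5 (0.86, adjusted p = 0.025) rose and Hspa12a (-0.95, adjusted p = 0.00596), Hspa12b (-1.99, adjusted p = 0.0215) and Hspb11 (-0.75, adjusted p = 0.0186) fell. Within wild type, Hspa12a fell (-0.94, adjusted p = 0.00854). For the 3 genotype comparisons and the interaction, limma called 0 of the 51, with an unadjusted p below 0.05 for 5 in SB (9.8%, against 10.1% of all genes), 5 after VILI (9.8%, against 6.88%), 8 averaged (15.7%, against 14.6%) and 3 for the interaction (5.88%, against 2.62%).

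Hspb8 read 10.07, 10.56 and 9.98 in knockout VILI, 9.38, 9.29 and 9.47 in knockout SB, 10.25, 10.25 and 10.47 in wild type VILI, and 9.67, 9.90 and 9.53 in wild type SB, so that all ventilated arrays lay above all SB arrays. Hspa12a read 5.95, 5.72 and 5.75 in knockout VILI, 6.81, 6.67 and 6.80 in knockout SB, 5.78, 5.68 and 5.56 in wild type VILI, and 6.65, 6.50 and 6.68 in wild type SB, again with no overlap. The mean of 8 of 8 endothelial markers was 10.87 to 11.30 in knockout VILI against 11.50 to 11.78 in knockout SB, and 11.22 to 11.29 in wild type VILI against 11.60 to 11.81 in wild type SB. The mean of 7 of 8 ciliated cell markers was 7.14 to 7.58 in knockout VILI against 7.70 to 7.86 in knockout SB, and 7.15 to 7.44 in wild type VILI against 7.86 to 8.35 in wild type SB. Their part in the falls of Hspa12b and Hspb11 was not tested. Over the 12 fits without 1 array, Hspb8, Dnajb5, Hspa12a, Hspa12b and Hspb11 passed in all for the average, Pfdn4 in 7, Clpx in 6, and Hspa13 and Dnaja4 in 2 each. Pfdn4 was lost without any 1 of wild type VILI replicates 1, 2 and 3, knockout VILI replicate 2 or wild type SB replicate 3 (highest adjusted p = 0.064), and Clpx without these or without knockout VILI replicate 1 (0.069). Hspa13 held only without knockout VILI replicate 1 or knockout SB replicate 1 (otherwise up to 0.109), and Dnaja4 only without wild type VILI replicate 1 or knockout SB replicate 2 (otherwise up to 0.114). The calls within knockout were lost without knockout VILI replicate 2 or knockout SB replicate 1 for Hspb8 (0.0609 and 0.0541), Dnajb5 (0.109 and 0.0728), Hspa12b (0.0878 and 0.0671) and Hspb11 (0.0854 and 0.0645). That of Dnajb5 was also lost without knockout SB replicate 3 (0.0605), that of Hspa12b without knockout VILI replicate 3 (0.0736) or knockout SB replicate 3 (0.0547), and that of Hspb11 without knockout VILI replicate 3 (0.0574). Within wild type, Hspa12a was lost without wild type VILI replicate 2 (0.0611) or wild type SB replicate 3 (0.0524). Leaving out both arrays high in B cell markers, the averaged calls of Hspa13 (0.0911) and Dnaja4 (0.142) were lost, and within knockout those of Dnajb5 (0.0799), Hspb11 (0.0811) and Hspa12b (0.12), while Hspb8 (0.0433) and Hspb11 (0.0477) passed within wild type.

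Several chaperone genes varied widely between arrays of 1 group. The within-group SD of the 32 genes had a median of 0.283, against 0.217 for all genes tested, and 7 of the 32 lay above the 90th percentile of all genes (0.448). These were Hspa1b (1.28), Hspa1a (1.10), Hsph1 (1.06), Hspb1 (0.555), Hspa8 (0.554), Stip1 (0.535) and Hspa4l (0.502). The chaperonin subunits were at the other end, between 0.0905 for Cct5 and 0.172 for Cct3, and Trap1 had the smallest SD at 0.0625. Of the 5 genes that rose with VILI, Dnajb1 had an SD of 0.397, and the other 4 lay between 0.0984 (Cct2) and 0.184 (Hspa4). When both arrays high in B cell markers were left out, the median SD was 0.226, against 0.185 for all genes, and 9 of the 32 lay above the 90th percentile (0.392). They were Hspa1b, Hspa1a, Hsph1, Hspa8, Dnajb1, Stip1, Hspa2, Bag3 and Hspe1, so that Hspb1 and Hspa4l were no longer among them.

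**Figure D4:**
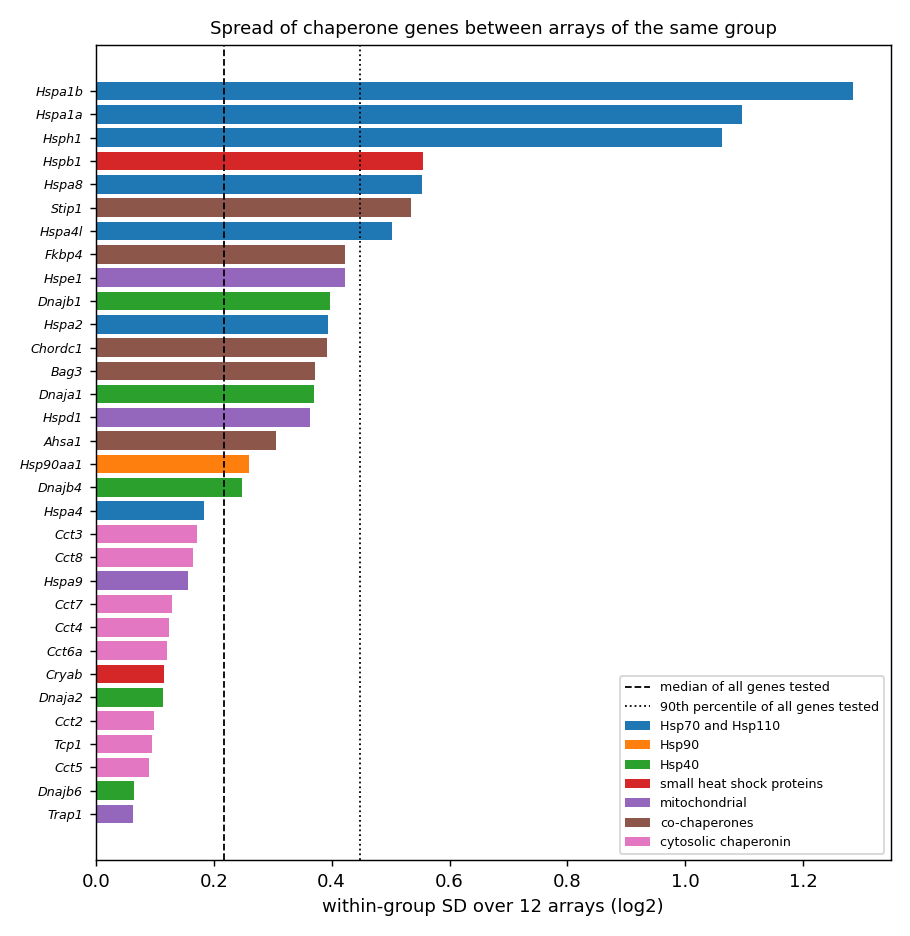
Within-group SD of the log2 level over the 12 arrays for the 32 chaperone genes, coloured by class, with the median (dashed) and the 90th percentile (dotted) of all genes tested. The 7 genes beyond the dotted line at 0.448 are Hspa1b, Hspa1a, Hsph1, Hspb1, Hspa8, Stip1 and Hspa4l, and all 8 chaperonin subunits lie left of the dashed line at 0.217.

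Many of these genes deviated from their group means on the same arrays. Hsph1, the third widest in spread, was taken as the common measure after its values were seen, and each gene's deviations from its 4 group means were correlated with those of Hsph1 over the 12 arrays. Hsph1 had more chaperone genes above r = 0.8 than any other of the 32, namely 13 of 31, against 141 of 10995 genes (1.28%). Since Hsph1 has the highest such count, these shares cannot be compared as for a gene chosen beforehand. The permutation p values with Hsph1 given below carry the same limit. With Hspa1b, the gene of the widest spread, 3 of 31 exceeded 0.8 (Hspa1a, Chordc1 and Hspe1), without a count over all genes. Over all 496 pairs of the 32 genes the median r was 0.373, and 71 pairs exceeded 0.8. Pairs of all genes tested were not counted, so these values have no background to be set against. Of the 51 other chaperone genes, 4 exceeded 0.8 with Hsph1 (Ahsa2, Hspa5, Dnajb2 and St13). The 13 were Stip1, Hsp90aa1, Hspd1, Hspa8, Ahsa1, Hspe1, Hspa4l, Cct8, Dnaja1, Hspb1, Fkbp4, Cct3 and Chordc1, from every class: 4 of 5 co-chaperones, 2 of 4 mitochondrial genes and 2 of 8 chaperonin subunits were among them. Leaving out the 2 arrays farthest from the median of Hsph1, replicates 3 and 2 of knockout SB, left 10 of the 13 above 0.8 and 120 of all genes. Without both arrays high in B cell markers, 11 of the 31 exceeded 0.8, against 2.07% of all genes: 10 of the 13, and Hspa1b (r = 0.845).

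Stip1 had r = 0.981 (Spearman's rho = 0.979, r = 0.957 without the 2 arrays), with the smallest p that reordering within groups can give, 0.000772 (exact permutation test, two-sided, 1296 reorderings). Hsp90aa1 had r = 0.966 (rho = 0.972, r = 0.972 without the 2 arrays, exact p = 0.000772). Hspd1 had r = 0.965 (rho = 0.965, r = 0.939 without them, exact permutation p = 0.00154 for both), Hspa8 had r = 0.954 (rho = 0.902, r = 0.969 without them, exact permutation p = 0.00231 and 0.00617) and Hspe1 had r = 0.929 (rho = 0.979, r = 0.92 without them, exact permutation p = 0.000772 for both). Adjusted over 10995 genes, 0 genes passed, the smallest adjusted p being 0.353, since the number of reorderings bounds the p from below. The 12 points share the group means taken from the same 3 arrays, so that they carry fewer than 12 independent values.

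The genes that rose with VILI were not among the 13. Their r with Hsph1 was 0.403 for Cct6a (rho = 0.357), 0.377 for Cct2 (rho = 0.455), 0.233 for Dnajb1 (rho = 0.063), 0.185 for Hspa9 (rho = 0.063) and -0.482 for Hspa4 (rho = -0.203), with exact permutation p of 0.154 for Cct6a, 0.138 for Cct2, 0.544 for Dnajb1, 0.619 for Hspa9 and 0.385 for Hspa4. Hspa1b had r = 0.692 (rho = 0.769, exact permutation p = 0.0448) and Hspa1a r = 0.478 (rho = 0.462, exact permutation p = 0.218). Array by array, Hsph1 deviated from its group mean by -0.85, 0.90 and -0.053 in knockout VILI, -0.32, -1.48 and 1.80 in knockout SB, 0.42, -0.16 and -0.25 in wild type VILI, and -0.79, -0.22 and 1.01 in wild type SB. Wild type VILI was thus the group with the narrowest range.

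**Figure D5:**
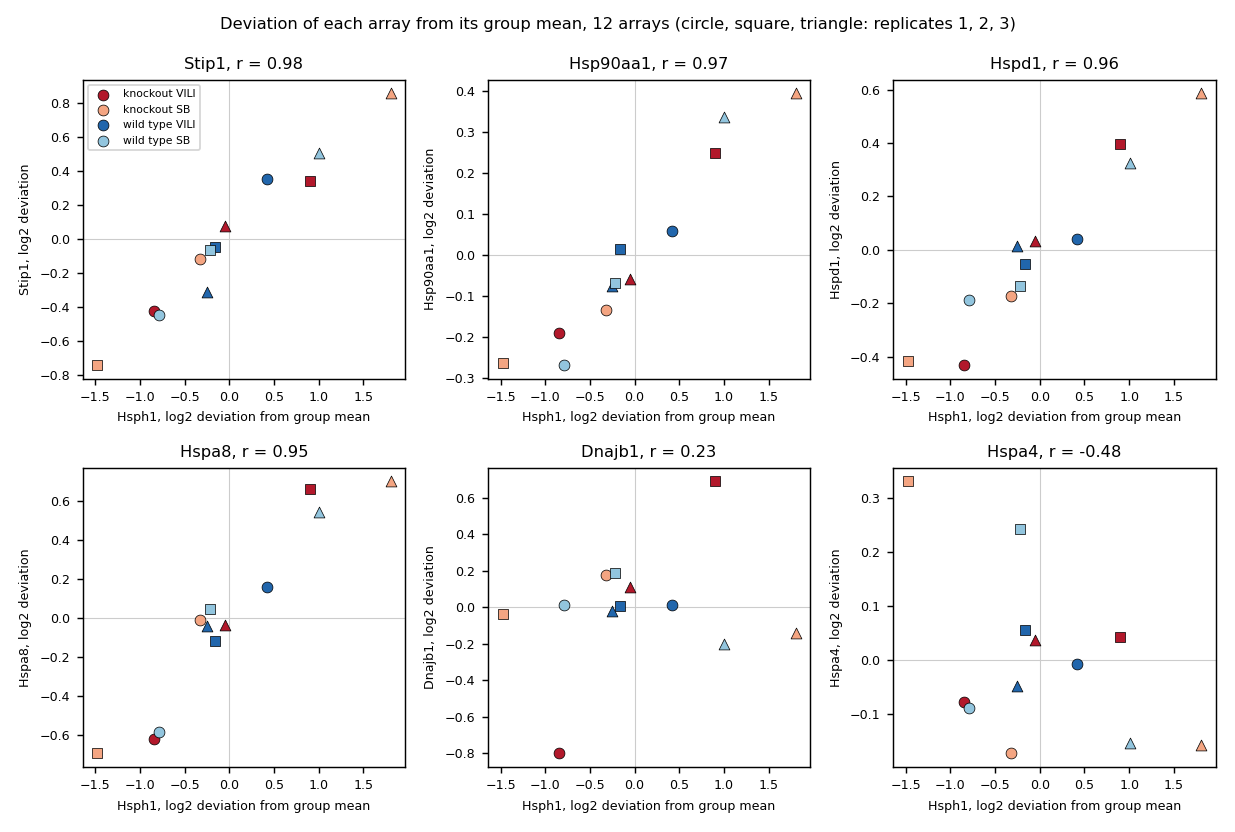
Deviation of each array from its group mean on the log2 scale for 6 chaperone genes (vertical) against that of Hsph1 (horizontal), 12 arrays, coloured by group and shaped by replicate. Stip1, Hsp90aa1, Hspd1 and Hspa8 lie along a line (r = 0.95 to 0.98), and Dnajb1 (r = 0.23) and Hspa4 (r = -0.48), which rose with VILI, do not. Without replicates 3 and 2 of knockout SB, r is 0.512 for Dnajb1 and -0.057 for Hspa4.

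Measures of cell composition and RNA integrity were set against the same deviations. Over 10 marker lists and the 3′ minus 5′ differences of beta actin and Gapdh, r with Hsph1 lay between -0.276 (type II epithelium) and 0.385 (B cells), with adjusted p = 0.974 for all 12 (exact permutation test). Outside the chaperones, Cirbp, the cold-inducible RNA-binding protein gene, ran the other way (r = -0.964, rho = -0.944, r = -0.936 without the 2 arrays, exact permutation p = 0.000772, adjusted p = 0.353), and was the fourth lowest of all genes. It read 10.89, 10.12 and 10.22 in knockout VILI, 10.10, 10.99 and 9.28 in knockout SB, 10.55, 10.74 and 10.78 in wild type VILI, and 10.48, 10.41 and 9.61 in wild type SB. Cirbp was picked after the values were seen, and 50 genes had r below -0.9. Ahsa2, a relative of Ahsa1, had r = 0.927 (rho = 0.916, exact permutation p = 0.00772), and Hspa5, the Hsp70 of the endoplasmic reticulum, r = 0.9 (rho = 0.909, exact permutation p = 0.000772).

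Promoters were searched for the element to which Hsf1 binds, on both strands of the window from 250 bases before to 50 bases after each start site. A short form of the heat shock element was taken as GAANNTTC, which is its own reverse complement and holds 2 of the 3-base units of the element in opposite orientation. The full element was this short form extended, on either side and across 2 free bases, by 1 more unit in alternating orientation, so that every full element also counts as a short one. Of the 34 genes, 27 had a window in the RefSeq sequences of build GRCm38.p6 that was searched. Cct4, Cryab, Hsf1, Hsp90aa1, Hsp90ab1, Hspa8 and Hspa9 did not. Windows on 1 chromosome were left out for the 34 genes but kept for all genes. A gene not among the 27 may therefore have a window that was not searched. A full element was found in 5 of these 27 genes (18.5%), against 0.662% of 27025 genes, and the short form in 12 of 27 (44.4%), against 9.04% of all genes. The 5 were Hsph1, Hspe1, Hspd1, Chordc1 and Dnajb6. A match describes letters in a window and was not tested as a binding site.

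The windows of Hsph1 (minus strand, chr5:149636287-149636586), which served as the common measure above, and of Hspe1 (plus strand, chr1:55087898-55088197), which followed it, are printed 5′ to 3′ with the full elements in capitals. The first element starts 36 bases after the start site in Hsph1 and 89 bases before it in Hspe1. Hspd1 lies head to head with Hspe1, their windows share 285 bases, and the element is the same one. The window of Hspa1b (minus strand, chr17:34959189-34959488), the gene with the widest spread, is shown for contrast, since it held only the short form, in capitals, 104 bases before the start. For Chordc1 (plus strand, chr9:18292260-18292289), 30 bases are given around overlapping elements that begin 4 bases before the start.
Hsph1: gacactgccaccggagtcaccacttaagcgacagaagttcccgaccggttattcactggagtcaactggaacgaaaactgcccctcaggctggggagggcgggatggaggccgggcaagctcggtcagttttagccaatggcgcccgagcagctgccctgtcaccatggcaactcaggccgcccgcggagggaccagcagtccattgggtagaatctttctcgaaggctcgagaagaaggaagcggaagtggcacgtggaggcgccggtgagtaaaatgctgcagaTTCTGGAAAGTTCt
Hspe1: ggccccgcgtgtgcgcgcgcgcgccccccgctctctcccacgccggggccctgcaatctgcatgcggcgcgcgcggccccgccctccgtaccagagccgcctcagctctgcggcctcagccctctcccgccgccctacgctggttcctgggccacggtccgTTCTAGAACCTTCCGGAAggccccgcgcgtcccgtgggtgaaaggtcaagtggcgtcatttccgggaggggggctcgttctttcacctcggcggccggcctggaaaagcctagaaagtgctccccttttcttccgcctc
Hspa1b: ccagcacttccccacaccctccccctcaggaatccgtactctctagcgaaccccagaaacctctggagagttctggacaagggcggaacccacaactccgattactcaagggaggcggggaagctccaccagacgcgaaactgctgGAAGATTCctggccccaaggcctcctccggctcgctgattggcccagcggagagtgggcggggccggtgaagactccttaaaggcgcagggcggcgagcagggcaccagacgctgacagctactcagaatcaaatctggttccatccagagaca
Chordc1: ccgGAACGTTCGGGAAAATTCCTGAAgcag

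Among Hsph1 and the genes that followed it with r above 0.8, 12 had a window and 4 held a full element (Hsph1, Hspe1, Hspd1 and Chordc1). Hspe1 and Hspd1 share the same element, and Hsph1 itself defined this group. Among the other 15 chaperone genes tested with a window, 1 did, Dnajb6, whose arrays stayed within 11.78 and 12.03. Of the 5 genes that rose with VILI, Cct2, Cct6a, Dnajb1 and Hspa4 had windows that were searched, and 0 of these 4 held a full element. No window of Hspa9 was searched. No match says only that these letters are not in the window.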

How the data were processed

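Lung RNA of 12 mice was hybridised to single-colour Affymetrix arrays. The deposited values are log2 expression levels per probe set, made by the authors. Per the submitters' processing notes MAS5 and GCRMA were used, with no role, order or version, and how arrays were scaled to each other is not stated. The array medians were 4.36 to 4.58.

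Of 45101 probe sets, 64 controls were left out. Of the other 45037, 34945 carried 1 gene symbol, 932 several and 9160 none, and only those with 1 symbol were named; 34741 matched RefSeq GRCm38.p6. Probe sets above the array median on at least 3 of the 12 arrays were kept (23082), and a gene's value was that of its brightest kept probe set by mean level, which left 10996 of 18193 genes. All 12 arrays entered 1 fit with a mean per group in limma 3.58.1 (R 4.3.3, empirical Bayes with a mean-variance trend, 8 residual degrees of freedom), with 7 two-sided contrasts and Benjamini-Hochberg adjustment over all genes at 0.05. The code was tested on simulated data. The errors given are SDs of 3 mice or standard errors of the fit, whose precision is set by how many arrays there are. Correlations with Hsph1 used deviations from the group means.

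The genes and lists were chosen with earlier results of these data known. Chaperone genes called, and the 3 of each class with the largest changes, were given by array. The labels give arrays of the same replicate number no shared source, and not every pair of them correlated above 0.1, so no block was used. The alternatives tried were quantile normalization, centring of arrays, 2 other filters, other ways to read a gene from its probe sets, no trend, only the 6 arrays compared, a replicate block, and leaving out single arrays or both arrays high in B cell markers, the last chosen after seeing the data.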

Additional observations from a re-analysis of the deposited data

Results flagged for a closer look

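A pair of probe sets outside the gene-level comparisons stood apart from the probe set that represents their gene, once each was tested on its own. A further probe set of Hspa8 read 5.0, 7.61 and 6.45 in knockout VILI, 4.56, 4.78 and 4.64 in knockout SB, 6.05, 6.08 and 6.14 in wild type VILI, and 4.85, 5.35 and 4.62 in wild type SB. All ventilated arrays of a genotype lay above its SB arrays, and the averaged VILI difference was 1.42 (limma, adjusted p = 0.0222), while the other Hspa8 probe sets gave 0.15 to 0.36 and were not called. The SB arrays of this probe set lay near the array medians of 4.36 to 4.58 that set the filter on low signal. The other Hspa8 probe sets had means of 13.08 to 13.41.

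A further probe set of Hspa9 read 10.73, 11.14 and 10.93 in knockout VILI, against 10.40, 10.42 and 10.01 in knockout SB. Its VILI difference in knockout was 0.66 (limma, adjusted p = 0.0460), whereas the probe set with the highest mean gave 0.46 (adjusted p = 0.0645). In wild type the further probe set read 10.63, 10.68 and 11.03 in VILI against 10.56, 10.66 and 10.50 in SB. These arrays overlapped, and the difference was 0.20 (limma, adjusted p = 0.483). Which transcripts these probe sets detect was not tested.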

How the results depend on the processing

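For VILI averaged over genotypes, 5 chaperone genes were called, against 17.8% of all genes. The count was 3 after quantile normalization, 1 with arrays centred on their medians, 2 with the mean of the kept probe sets and 3 without the mean-variance trend. It was 2 without both arrays high in B cell markers, against 14.8% of all genes. Leaving out 1 array gave 1 to 7, against 10.3% to 19% of all genes. With the mean of its probe sets Hspa4 came to 0.07 (adjusted p = 0.689). For VILI in knockout the count was 0, but 1 at the probe set level, against 2.47% of all probe sets. Without 1 array it was 0 to 6, against 0.628% to 6.48% of all genes. For VILI in wild type it was 0, and 1 (Hspa1a, adjusted p = 0.0479) when only the 6 arrays compared were fitted. Genotype averaged over treatments gave 0 to 4 without 1 array, against 0.2% to 1.46% of all genes. Knockout against wild type after VILI gave 0 to 3 without 1 array, against 0.0728% to 0.382% of all genes. Both gave 0 under the other alternatives. Knockout against wild type in SB and the interaction gave 0 under all alternatives. With the replicate number as a block, 6 genes were called for VILI averaged over genotypes and 3 for VILI in knockout (Cct6a, Hspa4 and Hspa9), although the numbers are not known to pair mice. Where no share of all genes stands beside a count, that share is not given here. Such counts are not a result about chaperones as a group. Deviations of arrays of the same number correlated at a median of 0.05 for number 1 (lowest -0.163), 0.132 for number 2 (lowest -0.037) and 0.146 for number 3 (lowest 0.059). The causes were not tested. Of the values given by gene in the text, 0 changed sign under any alternative, but these were narrowed to the genes the text names after the outcomes were seen. Over all 32 genes and 7 comparisons, 116 of 224 differences changed sign under at least 1 alternative, 106 of them smaller than their standard error and 0 of them called. Near-identical genes and signal near background limit what the arrays can tell apart.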

Other observations

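Among genes outside the chaperones, Nqo1, an enzyme of the oxidative stress response, deviated opposite to Hsph1 (r = -0.972, rho = -0.979, r = -0.961 without the 2 farthest arrays, exact permutation p = 0.000772, adjusted p = 0.353 over all genes). It read 6.51, 6.05 and 6.31 in knockout VILI, 5.50, 6.05 and 4.38 in knockout SB, 6.25, 6.34 and 6.48 in wild type VILI, and 6.70, 6.60 and 6.01 in wild type SB. The lowest array was replicate 3 of knockout SB, where Hsph1 was highest. Cacybp, whose product binds calcyclin, ran with Hsph1 (r = 0.888, rho = 0.888, r = 0.778 without the 2 arrays, exact permutation p = 0.000772, adjusted p = 0.353). Both genes were picked after the values were seen.

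The mean of 6 of 8 markers of proliferating cells was 8.03 in replicate 3 of knockout VILI and 6.23 in replicate 3 of knockout SB, against 4.96 to 5.89 on the other 10 arrays.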
